A study of Mus musculus with 6 samples.

Results

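RNA-seq counts of 10 genes in mouse embryonic fibroblasts (MEFs), a primary culture of mesenchymal cells from embryos, were compared between cells of WT and *Aff3ir-ORF2*-/- mice. The genes were chosen by name: the CCN proteins *Ccn1* to *Ccn5* and the YAP pathway genes *Ankrd1*, *Amotl2*, *Yap1*, *Wwtr1* and *Lats2*. All 10 were among the 17092 genes of the deposited table, and all 10 passed the filter on low counts, which kept 13075 genes. There were 3 libraries of each genotype, made from cultured MEFs with no treatment named in the labels. The *Aff3ir-ORF2*-/- mice carry a global CRISPR deletion of *Aff3ir-ORF2*, an open reading frame of a gene nested within *Aff3*. By design every cell of an *Aff3ir-ORF2*-/- culture carries it, which was not checked here. The labels do not say whether the libraries of a genotype came from separate embryos or cultures, so the p-values below measure only the spread between these libraries.

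CCN proteins are secreted, cysteine-rich matrix proteins that bind integrins and proteoglycans at the cell surface. YAP (*Yap1*) and its paralog TAZ (*Wwtr1*) are transcriptional coactivators that bind DNA through TEAD factors. In the Hippo pathway, the kinases LATS1 and LATS2 phosphorylate YAP and TAZ and keep them out of the nucleus, which couples gene expression to cell density, cell shape and matrix stiffness. *Ccn1*, *Ccn2*, *Ankrd1*, *Amotl2* and *Lats2* are textbook targets of YAP and TAZ, and in fibroblasts *Ccn1* and *Ccn2* are known as mechanically induced genes of wound repair and fibrosis. None of this was measured here, where transcript counts alone were available.

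Promoter sequence is shown for 3 target genes of YAP and TAZ whose levels fell, as given below, and for *Wwtr1*, whose level did not pass the test. RefSeq promoter windows (GRCm38.p6, 250 bases before to 50 after the start site) were at hand for 6 of the 10 genes: *Ccn1*, *Ankrd1*, *Amotl2*, *Yap1*, *Wwtr1* and *Lats2*. They were searched for GGAATG, the core letters that TEAD factors are known to bind, on both strands (CATTCC on the other). All 6 genes had a match in at least 1 window, against 14.6% of tested genes with a window. Counted from the start site, the first base of the match was at -103 in *Ccn1*, -65 in *Amotl2*, -141 in *Yap1* and -136 in *Wwtr1*. *Ankrd1* had 2 matches, at -210 and -123, and *Lats2* had 1 in the transcribed part, at 5, in 1 of its 2 windows and none in the other. *Wwtr1* also had 2 windows, and the same match lay at -170 from the start site of the second. The letters were present both in genes that fell and in *Wwtr1*, so their presence did not separate the genes. Among tested genes with a window, 17.4% of those lower and 16.3% of those higher past both thresholds had a match, and 14.6% of all. A match is a description of these letters and not a measured binding site. The 250 bases before the start site are printed 5′ to 3′ on the strand of the gene, with the matches in capitals.

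Ccn1, chr3:145649986-145650235, minus strand: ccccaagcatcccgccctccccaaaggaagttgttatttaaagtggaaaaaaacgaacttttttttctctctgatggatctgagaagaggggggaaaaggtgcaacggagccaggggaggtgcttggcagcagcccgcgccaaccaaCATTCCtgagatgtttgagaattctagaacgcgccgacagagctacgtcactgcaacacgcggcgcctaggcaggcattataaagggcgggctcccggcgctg
Ankrd1, chr19:36119845-36120094, minus strand: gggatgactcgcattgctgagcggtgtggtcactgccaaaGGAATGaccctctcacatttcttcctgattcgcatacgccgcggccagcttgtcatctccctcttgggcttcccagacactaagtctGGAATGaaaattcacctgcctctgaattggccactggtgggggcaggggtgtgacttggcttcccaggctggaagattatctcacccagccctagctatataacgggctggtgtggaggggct
Amotl2, chr9:102717554-102717803, plus strand: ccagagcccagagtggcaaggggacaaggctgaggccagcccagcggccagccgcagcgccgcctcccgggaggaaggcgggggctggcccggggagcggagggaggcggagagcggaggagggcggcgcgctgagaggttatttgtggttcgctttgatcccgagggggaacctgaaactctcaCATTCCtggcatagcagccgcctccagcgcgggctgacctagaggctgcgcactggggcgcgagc
Wwtr1, chr3:57575911-57576160, minus strand: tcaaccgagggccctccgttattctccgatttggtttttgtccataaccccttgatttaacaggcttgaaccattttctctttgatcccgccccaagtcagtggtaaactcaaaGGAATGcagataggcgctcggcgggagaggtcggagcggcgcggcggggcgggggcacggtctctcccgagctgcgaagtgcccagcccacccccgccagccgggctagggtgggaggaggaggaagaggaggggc

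**Figure D1:**
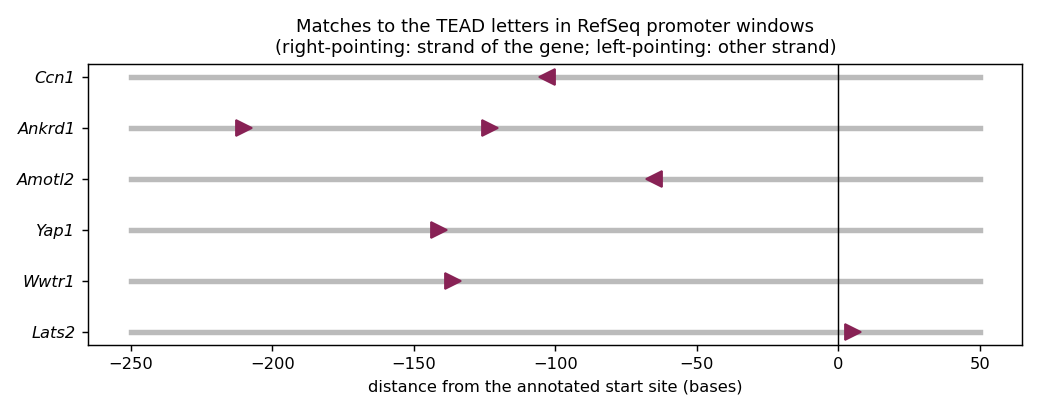
Position of GGAATG on either strand in the promoter windows of 6 genes (rows), in bases from the annotated start site (x axis). Matches lie between -210 and -65, except in *Lats2*, where the match is at 5; triangles point along the strand that holds the letters.

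Total counts were 17435133 to 17726034 in WT and 18209421 to 18252330 in *Aff3ir-ORF2*-/- libraries. The nested transcript itself was not analysed here, so it could not serve to check the genotype of a library. *Aff3ir-ORF2*-/- replicate 2 stood apart from the other two libraries of its genotype. The spread of replicates beyond counting noise, as a coefficient of variation common to all genes, was 0.0185 in WT, 0.0996 in *Aff3ir-ORF2*-/- libraries and 0.0641 without replicate 2. Values without this library are given beside the results that it moved most. All 12 listed fibroblast markers, *Col1a1* and *Pdgfra* among them, were counted in both genotypes, with a summed level of 28486 to 28593 CPM in WT and 24975 to 31080.0 CPM in *Aff3ir-ORF2*-/- MEFs. Within this list, 3 genes rose past both thresholds defined below, *Lum* (log2 fold change 2.17), *Dcn* (0.65) and *Pdgfrb* (0.59), and on the adjusted p alone 2 rose and 3 fell, *Col1a1* (-0.49), *Col1a2* (-0.41) and *Vim* (-0.39). The other 4 did not pass. Of all tested genes, 14.3% rose and 7.32% fell past both thresholds, and 56.9% passed the adjusted p with or without the fold. CPM, the unit of level used below, is the count of a gene scaled to a common library size with TMM factors.

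Levels were lower in *Aff3ir-ORF2*-/- MEFs for *Ccn1* and, by less, for *Ccn2*, *Amotl2*, *Ankrd1* and *Yap1*, and higher for *Ccn5* and *Ccn3*. The quasi-likelihood test of edgeR was used, with p-values adjusted over all tested genes by the Benjamini-Hochberg method. The test was passed at an adjusted p under 0.05, and the second threshold was a change of at least 1.5-fold. Of the 10 genes, 2 passed both thresholds, *Ccn1* lower and *Ccn5* higher, where 21.6% of all tested genes did (14.3% higher and 7.32% lower). The adjusted p alone was passed by 7 of the 10, 5 lower and 2 higher, where 56.9% of all tested genes passed (29.4% higher and 27.6% lower). The levels of the genotypes did not overlap for the same number, 7 of 10 (5 lower and 2 higher), against 66.0% of all tested genes (32.7% lower and 33.3% higher). In either direction these shares are not far from those of all genes. By direction, on the adjusted p alone and by overlap, lower genes were a larger share and higher genes a smaller share than among all genes. With only 10 genes, chosen by name, the results are the sizes and directions of single genes, not their number. The median log2 fold change was -0.08 over the 10 genes and 0.0056 over all tested genes. In the plot of levels by library, *Ccn1*, *Ccn2*, *Amotl2*, *Ankrd1* and *Yap1* separate the genotypes downwards and *Ccn5* and *Ccn3* upwards. The gap is small for *Yap1* and *Ccn3*.

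**Figure D2:**
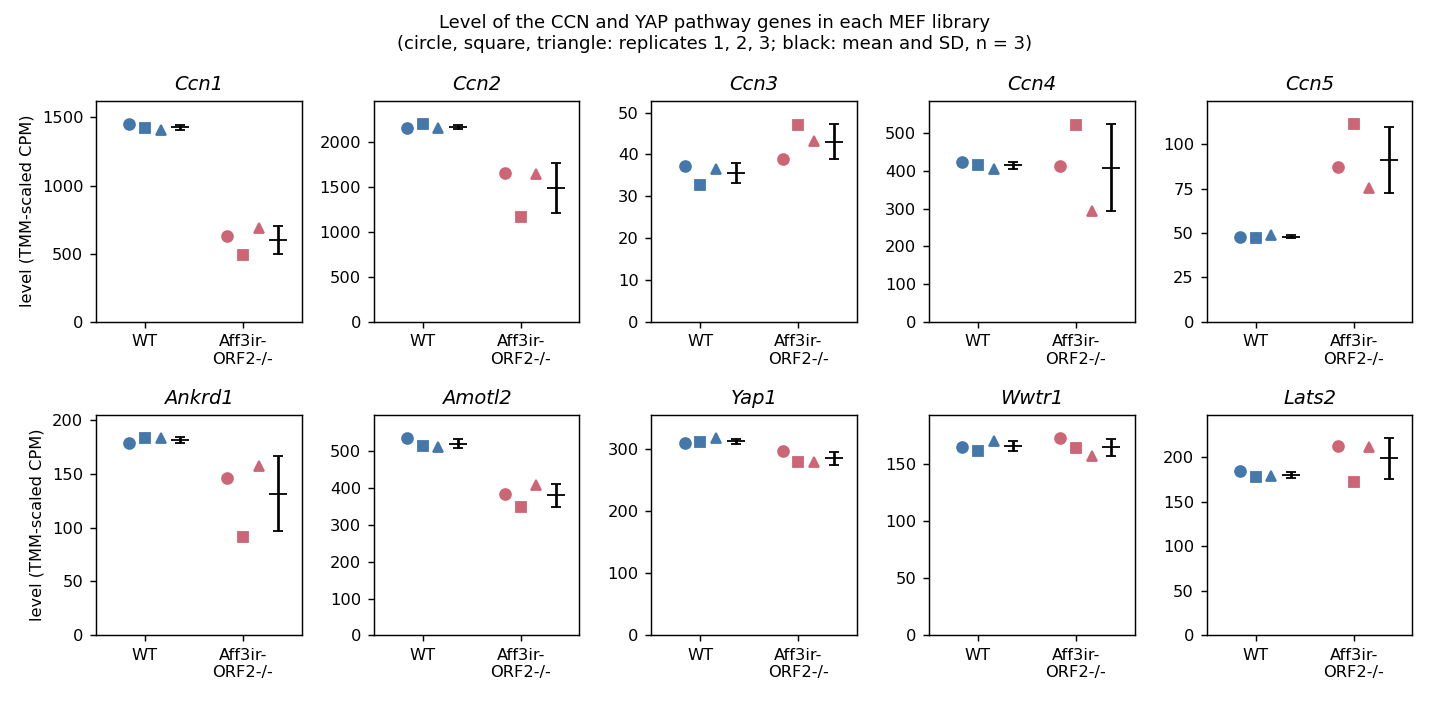
Level of each gene in TMM-scaled CPM (y axis, from 0) in the 3 WT (blue) and 3 *Aff3ir-ORF2*-/- (red) libraries, with the mean and SD in black. *Ccn1* fell from a mean of 1427 to 599.5 CPM, while *Wwtr1* lay at 166 and 165 CPM.

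*Ccn1* (gene ID 16007), which encodes the matricellular protein CYR61, had the largest difference of the 10 genes. Its level was 1449, 1422 and 1409 CPM in WT replicates 1, 2 and 3, and 625, 488 and 686 CPM in *Aff3ir-ORF2*-/- replicates 1, 2 and 3. Every *Aff3ir-ORF2*-/- library was thus below every WT library, with a wide gap. The mean fell from 1427 ± 20.04 to 599.5 ± 101 CPM (SD, n = 3 each), 2.38-fold lower. The log2 fold change was -1.25 (standard error, SE, 0.11; adjusted p = 2.68e-05, edgeR). Without *Aff3ir-ORF2*-/- replicate 2 it was -1.13, with an adjusted p of 2.71e-09 (edgeR).

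*Ccn2* (gene ID 14219), which encodes connective tissue growth factor, had the most counts of the 10 genes. It lay at 2164, 2198 and 2153 CPM in WT and at 1654, 1164 and 1642 CPM in *Aff3ir-ORF2*-/- replicates 1, 2 and 3. The genotypes did not overlap, and replicate 2 was the lowest library. The log2 fold change of -0.55 (SE 0.12, adjusted p = 0.00408, edgeR) corresponds to a level 1.46-fold lower, short of the fold threshold. It was -0.40 without replicate 2, but past the fold threshold without *Aff3ir-ORF2*-/- replicate 1 (-0.64) or 3 (-0.63). *Ccn1* fell more than *Ccn2* within each library. The ratio of *Ccn1* to *Ccn2* counts, which does not depend on library scaling, was 0.670, 0.647 and 0.655 in WT and 0.378, 0.419 and 0.418 in *Aff3ir-ORF2*-/- libraries. The log2 ratio differed by -0.70 (SE 0.05, exact permutation test, two-sided p = 0.1, adjusted p = 0.1 over 4 ratios), and 3 libraries against 3 can give no smaller p.

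*Ccn5* (gene ID 22403), which encodes a CCN protein without the carboxy-terminal domain of the others, moved the other way. Its level was 47.6, 47.0 and 49.1 CPM in WT and 87.0, 111 and 75.1 CPM in *Aff3ir-ORF2*-/- replicates 1, 2 and 3. All of the latter were above the highest WT library, and replicate 2 was the highest. The level rose 1.90-fold, a log2 fold change of 0.93 (SE 0.12, adjusted p = 2.92e-04, edgeR), or 0.75 without replicate 2 with an adjusted p of 1.10e-06 in the same test. *Ccn3* (gene ID 18133), a CCN protein known to oppose *Ccn2* in fibrosis models, was at 37.2, 32.7 and 36.6 CPM in WT and at 38.9, 47.1 and 43.3 CPM in *Aff3ir-ORF2*-/- MEFs. It rose by a log2 fold change of 0.28 (SE 0.08, adjusted p = 0.0176, edgeR), under the fold threshold. Without WT replicate 2, the lowest library, this was 0.22 with an adjusted p of 0.0792.

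*Ccn4* (gene ID 22402), known as a Wnt-induced secreted protein, had nearly the same mean in both genotypes but unequal spread. It was at 423, 415 and 406 CPM in WT and at 413, 522 and 293 CPM in *Aff3ir-ORF2*-/- replicates 1, 2 and 3. The *Aff3ir-ORF2*-/- libraries thus lay on both sides of the WT range. The log2 fold change was -0.02 (SE 0.17, 95% interval -0.40 to 0.36, adjusted p = 0.927, edgeR), an interval that leaves room for a change of some size either way. It was -0.24 (adjusted p = 0.0623) without *Aff3ir-ORF2*-/- replicate 2 and 0.17 (adjusted p = 0.131) without replicate 3. The ratio of *Ccn5* to *Ccn4* counts was 0.112, 0.113 and 0.121 in WT and 0.211, 0.213 and 0.256 in *Aff3ir-ORF2*-/- libraries. The log2 ratio was higher by 0.97 (SE 0.10, p = 0.1 in the two-sided exact permutation test, its lower limit). The sixth family gene, *Ccn6*, was counted 3, 3 and 5 times in WT and 7, 5 and 1 times in *Aff3ir-ORF2*-/- libraries, too few to be tested.

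The 5 CCN genes together held 0.401% to 0.408% of the counts of a WT library and 0.238% to 0.282% of an *Aff3ir-ORF2*-/- library. Of the counts of these 5 genes, *Ccn1* made up 34.6% to 35.2% in WT and 20.9% to 25.0% in *Aff3ir-ORF2*-/- libraries. The share of *Ccn5* was 1.14% to 1.21% in WT and 2.74% to 4.77% in *Aff3ir-ORF2*-/- libraries. The shares of *Ccn2* were 52.5% to 53.4% in WT and 49.9% to 59.9% in *Aff3ir-ORF2*-/- libraries and overlapped.

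The intracellular targets of YAP and TAZ were *Amotl2* and *Ankrd1*, which fell, and *Lats2*, which did not pass the test. *Amotl2* (gene ID 56332), an angiomotin-like scaffold that holds YAP at cell junctions, was at 535, 516 and 511 CPM in WT and at 385, 347 and 407 CPM in *Aff3ir-ORF2*-/- libraries. The genotypes did not overlap, and the spread within each was small beside the gap. It was 1.37-fold lower, a log2 fold change of -0.45 (SE 0.06, adjusted p = 2.88e-04, edgeR), and -0.40 without replicate 2. *Ankrd1* (gene ID 107765), an ankyrin repeat protein of muscle sarcomeres that stretch induces, was at 178, 183 and 183 CPM in WT and at 146, 91.4 and 157 CPM in *Aff3ir-ORF2*-/- replicates 1, 2 and 3. All 3 *Aff3ir-ORF2*-/- libraries were below WT, replicate 2 by far the most. The log2 fold change was -0.46 (SE 0.16, adjusted p = 0.0377, edgeR), and -0.26 without replicate 2 (adjusted p = 1.46e-04). The adjusted p rose to 0.0852, 0.0917 and 0.0934 without WT replicate 1, 2 or 3, so the call for *Ankrd1* was lost with any WT library left out. The log2 fold change stayed at -0.47, -0.46 and -0.46 in these fits, so its size did not rest on a WT library. It was -0.55 without *Aff3ir-ORF2*-/- replicate 1 (adjusted p = 0.0422) and -0.61, past the fold threshold, without replicate 3 (adjusted p = 0.0108). *Lats2* (gene ID 50523), a kinase that restrains YAP and is itself a target, was at 184, 177 and 179 CPM in WT and at 212, 172 and 211 CPM in *Aff3ir-ORF2*-/- replicates 1, 2 and 3. Replicates 1 and 3 were above WT and replicate 2 below it. The log2 fold change was 0.14 (SE 0.08, 95% interval -0.03 to 0.31, adjusted p = 0.149, edgeR). Without replicate 2 it was 0.23, past the adjusted p threshold (adjusted p = 1.33e-04) and opposite in direction to *Ccn1*, *Ccn2*, *Amotl2* and *Ankrd1*. It was 0.086 (adjusted p = 0.408) without *Aff3ir-ORF2*-/- replicate 1 and 0.090 (adjusted p = 0.366) without replicate 3, so its size rested on which library was kept.

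The coactivators themselves differed little. *Yap1* (gene ID 22601) was at 309.9, 311 and 317 CPM in WT and at 297, 278 and 279.8 CPM in *Aff3ir-ORF2*-/- MEFs. The genotypes did not overlap, but the gap was small. The log2 fold change was -0.13 (SE 0.04, 95% interval -0.23 to -0.04, adjusted p = 0.0244, edgeR), a level 1.10-fold lower. The adjusted p rose above 0.05 without WT replicate 1, 2 or 3 (0.0629, 0.0739 and 0.0894), while the log2 fold change stayed at -0.14, -0.14 and -0.13. It was also above 0.05 without *Aff3ir-ORF2*-/- replicate 3 (0.0549) and with upper quartile scaling (0.0600). *Wwtr1* (gene ID 97064) was at 165, 162 and 171 CPM in WT and at 173, 164 and 157 CPM in *Aff3ir-ORF2*-/- MEFs, so that the ranges overlapped. Its log2 fold change was -0.01 (SE 0.05, 95% interval -0.12 to 0.10, adjusted p = 0.865, edgeR), which bounds any change at a small size. The ratio of *Yap1* to *Wwtr1* counts was 1.87, 1.92 and 1.86 in WT and 1.72, 1.70 and 1.78 in *Aff3ir-ORF2*-/- libraries, a log2 difference of -0.12 (SE 0.03, p = 0.1 in the two-sided exact permutation test, its lower limit).

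**Figure D3:**
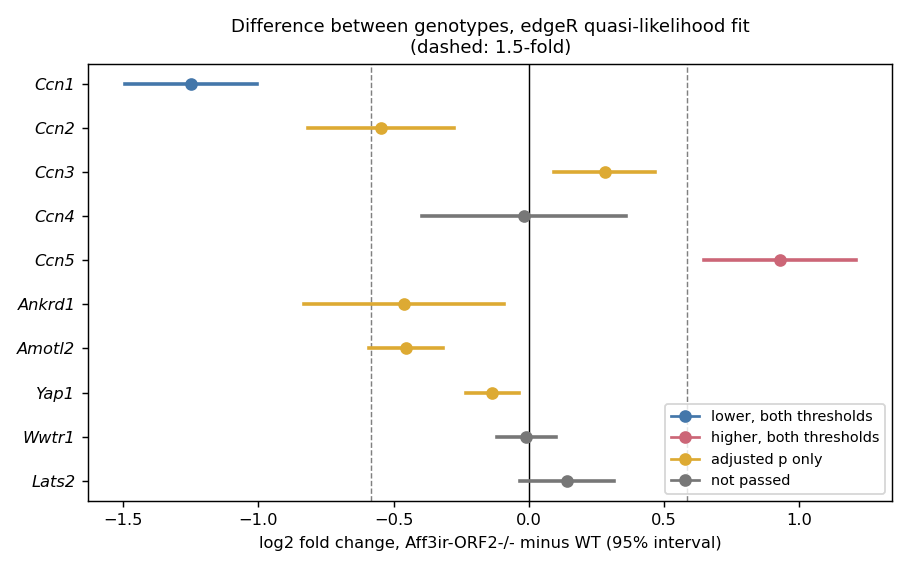
Log2 fold change of each gene, *Aff3ir-ORF2*-/- minus WT (x axis), with its 95% interval from the edgeR fit (3 libraries of each genotype); dashed lines mark a 1.5-fold change. Only the intervals of *Ccn1* and *Ccn5* lie wholly beyond a dashed line, while those of *Ccn4*, *Wwtr1* and *Lats2* include 0.

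The 10 genes also differed in how their levels compared with each other. To compare genes, CPM was divided by the length of the longest annotated transcript in kilobases. In WT MEFs, *Ccn2* had the highest level at 872 ± 9.44 CPM per kilobase, followed by *Ccn1* at 707 ± 9.92 and *Amotl2* at 118 ± 2.89 (SD, n = 3). *Ankrd1*, *Ccn4* and *Yap1* followed at 89.7, 81.4 and 59.2 CPM per kilobase, then *Wwtr1* at 35.3, *Lats2* at 34.7, *Ccn5* at 27.9 and *Ccn3* at 12.4. *Wwtr1* and *Lats2* were the only neighbours in this WT order whose libraries overlapped. In *Aff3ir-ORF2*-/- MEFs *Ccn2* and *Ccn1* were still highest, at 597 ± 112 and 297 ± 50.3 CPM per kilobase. The levels of *Amotl2*, *Ccn4*, *Ankrd1*, *Yap1* and *Ccn5* then ran from 85.8 to 53.0 CPM per kilobase, each overlapping the next. *Ccn5* was thereby above *Lats2* (38.2) and *Wwtr1* (35.1) in *Aff3ir-ORF2*-/- MEFs and below both in WT.

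*Aff3ir-ORF2*-/- replicate 2 differed from replicates 1 and 3 in a gene-specific way. On the log2 scale, its level was below the mean of the other two by 0.43 for *Ccn1*, 0.50 for *Ccn2*, 0.73 for *Ankrd1* and 0.30 for *Lats2*. It was above their mean by 0.59 for *Ccn4*, 0.46 for *Ccn5* and 0.20 for *Ccn3*. Replicate 2 was the lowest of its genotype for 6 of the 10 genes and the highest for 3, against 40.8% and 36.5% of all tested genes. The *Aff3ir-ORF2*-/- libraries of *Yap1* and *Wwtr1* spanned 0.09 and 0.14 on the log2 scale, while those of *Ccn4* spanned 0.83 and those of *Ankrd1* 0.78. The median span of all tested genes was 0.21 among *Aff3ir-ORF2*-/- and 0.12 among WT libraries.

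**Figure D4:**
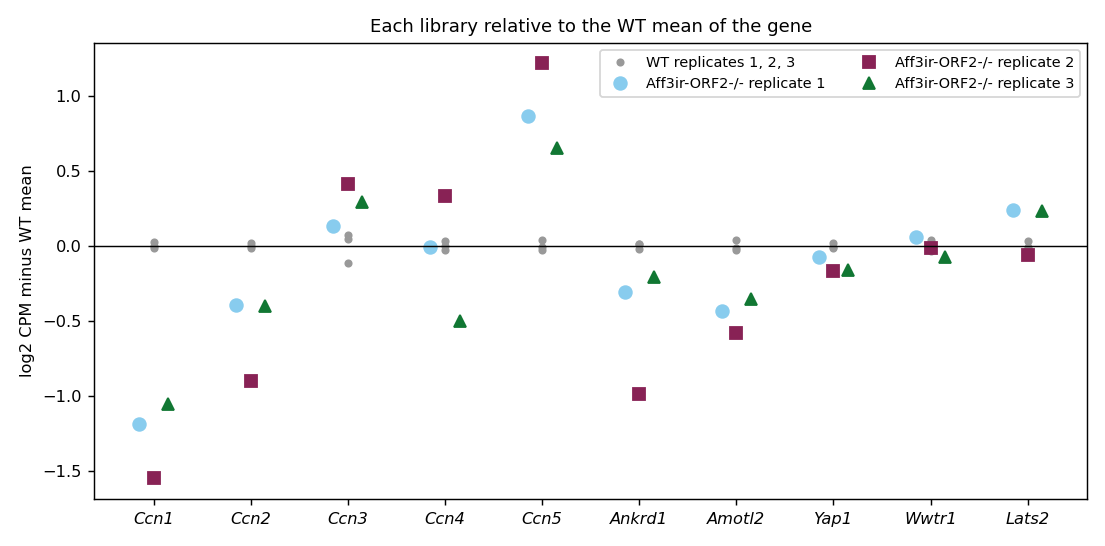
Log2 CPM of each library minus the WT mean of the gene (y axis) for the 10 genes (x axis); grey points are WT libraries and coloured symbols the 3 *Aff3ir-ORF2*-/- libraries. Replicate 2 (square) is the library farthest from 0 for *Ccn1*, *Ccn2*, *Ccn3*, *Ccn5*, *Ankrd1*, *Amotl2* and, by little, *Yap1*. The 3 libraries of *Ccn4* fall on both sides of 0.

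The other genes of the pathway were read from lists by role. Of 17 further YAP target genes, all tested, 3 rose past both thresholds and 0 fell, and on the adjusted p alone 2 more rose and 3 fell. Past both thresholds, 14.3% of all tested genes rose and 7.32% fell, and the 8 of 17 that passed the adjusted p compare with 56.9% of all tested genes. The median log2 fold change was 0.23. *Myof*, a ferlin of membrane repair, fell as *Ccn2* did, from 922 ± 14.7 to 634 ± 32.2 CPM (SD, n = 3; log2 fold change -0.54, adjusted p = 3.65e-05, edgeR). *Asap1* (-0.43) and *Rbms3* (-0.43) also fell on the adjusted p alone, and *Ptpn14* (0.33) and *Arhgef17* (0.24) rose. *Ccdc80*, a secreted matrix protein, rose from 212 ± 1.45 to 535 ± 95.8 CPM, a log2 fold change of 1.33. *Nt5e*, the ecto-enzyme CD73, rose from 2.98 ± 0.668 to 13.7 ± 1.86 CPM, a log2 fold change of 2.19. *Tgfb2*, a TGF-β ligand, rose by 0.59, just at the fold threshold, which it did not reach without WT replicate 2 (0.53) or without *Aff3ir-ORF2*-/- replicate 2 (0.57) or 3 (0.55). With all libraries kept, it also fell short with DESeq2 size factors (0.584), without a filter on low counts (0.570) and in the DESeq2 Wald test (0.578). *Axl*, the receptor with the most counts of the list, had 1318 ± 10.2 and 1250.4 ± 151 CPM, a difference that did not pass the test (adjusted p = 0.440). *F3*, *Crim1*, *Igfbp3* and *Gadd45a* also did not pass, with *Aff3ir-ORF2*-/- replicate 2 apart from replicates 1 and 3. *F3* was at 425, 314 and 508 CPM and *Igfbp3* at 35.4, 88.3 and 37.7 CPM in *Aff3ir-ORF2*-/- replicates 1, 2 and 3. *Crim1* was at 265, 176 and 277 CPM in the same order. WT replicates 1, 2 and 3 had 443, 461 and 459 CPM for *F3* and 43.2, 43.9 and 44.8 CPM for *Igfbp3*. For *Crim1* they had 215, 205 and 215 CPM. Fits without replicate 2 are not reported for these genes.

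Among 19 Hippo kinases and scaffolds, 2 fell and 0 rose past both thresholds, and 12 did not pass the adjusted p (median log2 fold change -0.09). The background is 7.32% of all tested genes lower past both thresholds, and 56.9% passing the adjusted p, as 7 of these 19 did. *Wwc1*, the scaffold KIBRA that activates LATS kinases, was at 32.5, 32.1 and 32.7 CPM in WT and at 16.5, 11.9 and 15.6 CPM in *Aff3ir-ORF2*-/- libraries. It was 2.21-fold lower (log2 fold change -1.14, SE 0.11, adjusted p = 4.16e-05, edgeR). *Frmd6*, a FERM scaffold of the same pathway, was at 397, 415 and 402 CPM against 219, 254 and 204 CPM, with a log2 fold change of -0.84 (SE 0.08, adjusted p = 3.25e-05). Both calls held without any single library. On the adjusted p alone, *Stk3* (-0.34), *Nf2* (-0.19) and *Mob1a* (-0.18) fell and *Taok2* (0.29) and *Sav1* (0.13) rose. The change of *Lats1*, the paralog of *Lats2*, was -0.13 on the log2 scale (adjusted p = 0.0694, not passed). The ratio of *Lats2* to *Lats1* counts was 1.55, 1.51 and 1.43 in WT and 1.81, 1.57 and 2.02 in *Aff3ir-ORF2*-/- libraries. The log2 ratio was higher by 0.26 (SE 0.11, p = 0.1 in the two-sided exact permutation test, its lower limit).

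Of the TEAD and VGLL factors, the DNA-binding partners of YAP and a family of competing cofactors, 7 of 8 were in the table and 6 were tested, of which 0 rose and 1 fell past both thresholds, against 14.3% and 7.32% of all tested genes. *Tead1*, by counts the main factor, was at 593, 612 and 619 CPM in WT and at 592, 520.0 and 564 CPM in *Aff3ir-ORF2*-/- libraries, which did not pass the test (log2 fold change -0.12, adjusted p = 0.0879, edgeR). *Tead2* fell by 0.46 and *Tead3* rose by 0.43 on the log2 scale, both on the adjusted p alone. *Tead4* fell from 12.6 ± 1.09 to 7.89 ± 1.81 CPM, a log2 fold change of -0.68 (adjusted p = 0.00620). Without *Aff3ir-ORF2*-/- replicate 2 it was -0.51, short of the fold threshold. *Vgll3* and *Vgll4* did not pass the test. Upstream of the kinases, the FAT cadherins *Fat4* and *Fat3* rose, *Fat4* from 28.3 ± 0.131 to 68.8 ± 9.81 CPM (log2 fold change 1.28, adjusted p = 1.51e-05, edgeR) and *Fat3* from 1.72 ± 0.263 to 6.80 ± 1.42 CPM (1.98). *Fat1*, with the most counts, was higher by 0.14 on the log2 scale (adjusted p = 0.0431). *Dchs2* was counted 11, 18 and 19 times in WT and 8 times in each *Aff3ir-ORF2*-/- library. Its call as lower (log2 fold change -1.07, adjusted p = 0.0221) was lost without WT replicate 2 (adjusted p = 0.0784) or 3 (0.0875).

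Of 11 genes for cell surface receptors of CCN proteins, 4 rose and 1 fell past both thresholds, and 5 more rose on the adjusted p alone (median log2 fold change 0.29). Of all tested genes, 14.3% rose and 7.32% fell past both thresholds, and 29.4% were higher at the adjusted p with or without the fold. *Sdc4*, a heparan sulfate proteoglycan, rose from 77.7 ± 2.71 to 175 ± 25.4 CPM (log2 fold change 1.17, adjusted p = 1.91e-05, edgeR). *Itgb5* rose by 0.68, or by 0.57 without *Aff3ir-ORF2*-/- replicate 2, which is under the fold threshold. *Itga6*, the laminin-binding integrin chain, fell from 125 ± 5.12 to 74.6 ± 16.0 CPM (log2 fold change -0.75). Without *Aff3ir-ORF2*-/- replicate 2 it was -0.58, just short of the fold threshold. *Itgb1*, with the most counts, had a log2 fold change of 0.33. The other two that rose, *Itgam* and *Itgb2*, form the leukocyte integrin of macrophages and rose from 0.821 ± 0.227 and 2.18 ± 0.386 CPM to 48.3 ± 13.3 and 42.2 ± 9.57 CPM.

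**Figure D5:**
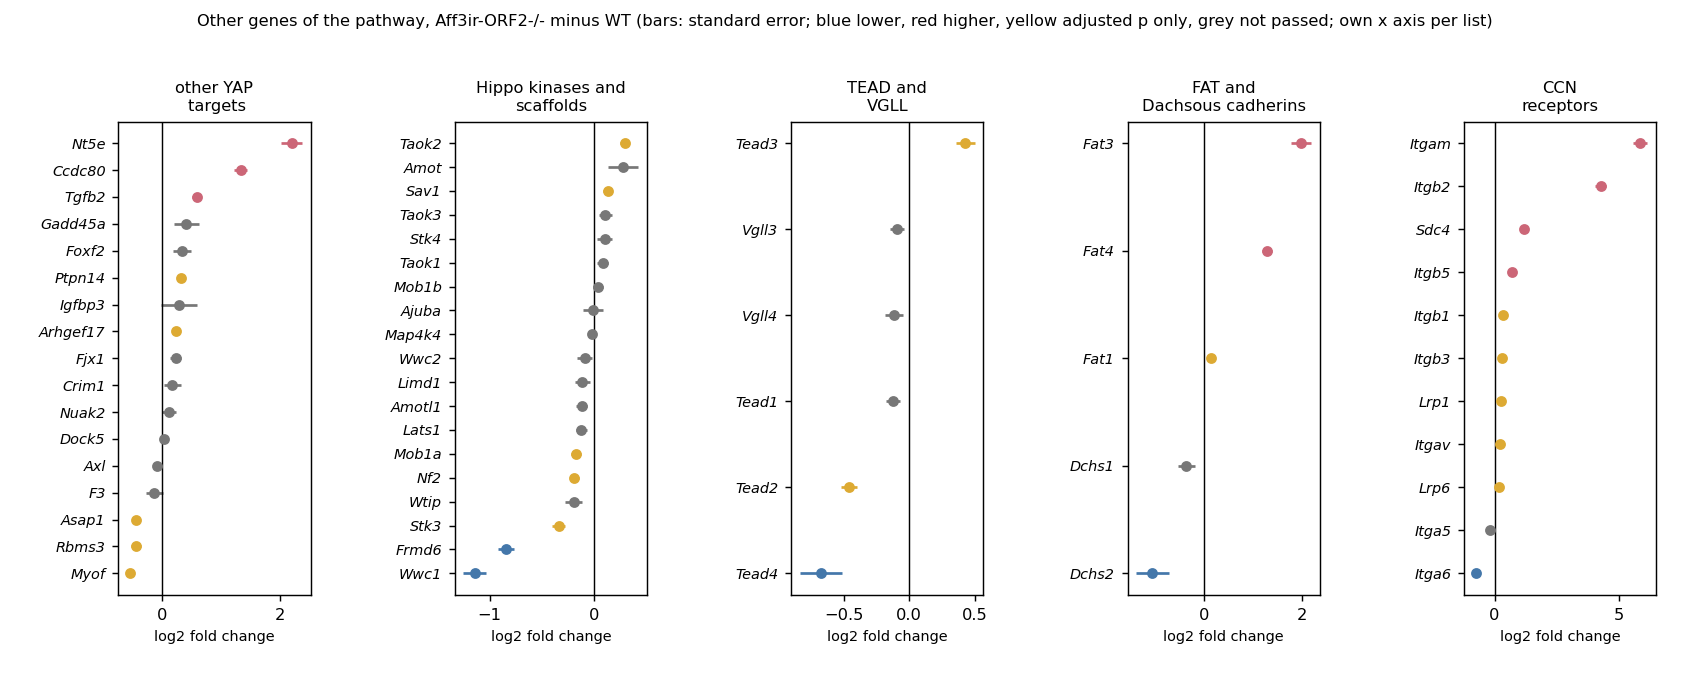
Log2 fold change, *Aff3ir-ORF2*-/- minus WT (x axis, with its own range in each panel), of the tested genes of 5 lists, with standard errors from the edgeR fit; blue and red passed both thresholds, yellow the adjusted p alone. *Wwc1* and *Frmd6* stand apart among the Hippo kinases and scaffolds, and *Itgam* and *Itgb2* among the receptors.

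Lists of markers for other cell types differed in how they moved with genotype. The macrophage list rose most, while the summed epithelial and neural levels overlapped between genotypes. Of all tested genes, 14.3% rose and 7.32% fell past both thresholds, the rule behind the counts of markers below. All 15 tested of 16 macrophage markers rose, from a summed level of 22.7 to 25.5 CPM in WT to 1305, 1799 and 2228 CPM in *Aff3ir-ORF2*-/- replicates 1, 2 and 3. *C1qa*, a complement gene of macrophages, was at 0 counts in every WT library and at 234, 567 and 479 counts in *Aff3ir-ORF2*-/- libraries. Of 8 smooth muscle markers, 6 rose past both thresholds (summed level 4421 to 4521 CPM in WT and 7274 to 7993 CPM in *Aff3ir-ORF2*-/- MEFs). Smooth muscle markers were thus well counted in WT MEFs too, unlike those of macrophages. *Acta2* and *Cnn1*, genes of the contractile apparatus, had log2 fold changes of 0.84 and 1.71 while *Ccn1*, *Ccn2* and *Ankrd1* fell. The remaining genes of the list were *Smtn*, which fell on the adjusted p alone (-0.45), and *Lmod1*, which did not pass (-0.10). The summed levels of 8 measured endothelial markers were 11.4 to 12.1 CPM in WT and 18.9 to 23.6 CPM in *Aff3ir-ORF2*-/- MEFs, with *Pecam1* at 5 counts or fewer in every library and 3 higher and 1 lower of 6 tested. Markers of striated muscle, the tissue best known for *Ankrd1*, summed to 2.46 to 2.73 CPM in WT and 3.38 to 4.01 CPM in *Aff3ir-ORF2*-/- MEFs, with *Myf5* and *Pax7* at 0 or 1 counts. Of these, 1 of 2 tested rose. Epithelial markers summed to 22.2 to 22.9 CPM in WT and 12.6 to 25.4 CPM in *Aff3ir-ORF2*-/- MEFs, with *Epcam* at 4 counts or fewer. Cartilage and bone markers summed to 70.6 to 72.2 CPM in WT and 49.3 to 67.0 CPM in *Aff3ir-ORF2*-/- MEFs (1 higher and 2 lower of 4 tested). Neural markers summed to 43.3 to 48.0 CPM in WT and 22.6 to 44.7 CPM in *Aff3ir-ORF2*-/- MEFs (2 higher and 2 lower of 4 tested). The part of any other cell type in the levels of the CCN and YAP pathway genes was not tested. In bulk RNA, fewer cells of a type and less RNA per cell cannot be told apart.

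The genes with the most similar profiles were found by the root mean square distance between log2 CPM over the 6 libraries, each profile centred on its WT mean, among the 9672 tested genes whose mean log2 CPM reached 3. Nearest to *Ccn1* were *Uhrf1*, a factor of DNA methylation maintenance (distance 0.0409), *Dusp9*, a MAP kinase phosphatase (0.0513), and *Pole*, a DNA polymerase subunit (0.0591). Nearest to *Ccn2* were *Pimreg* (0.0249), *Txnrd1*, a thioredoxin reductase (0.0294), and *Polq*, a repair polymerase (0.0322). Their log2 fold changes were -1.25, -1.30 and -1.25 for the first group and -0.54, -0.52 and -0.54 for the second. That these lie near the values of *Ccn1* and *Ccn2* follows from the choice by distance. None of the nearest genes was on the lists of the pathway.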

How the data were processed

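The authors sequenced paired-end DNBSEQ libraries of MEFs through a company, filtered reads with SOAPnuke and deposited un-normalized estimated counts for each gene in each library. The submitters' processing notes name the build mm8. The aligner and the counting tool are not given in the sources used here. Between 10.6% and 11.3% of values were not whole, and all were rounded. Library groups came from the titles. Genes were filtered with edgeR 4.0.16 (filterByExpr, minimum count 10, minimum total 15) and tested with its quasi-likelihood test after TMM scaling, without covariates. TMM factors were 0.989 to 1.02. Standard errors are the log2 fold change over the square root of F, and intervals use the degrees of freedom of the test. Alternatives used DESeq2 1.42.0, limma 3.58.1, other scalings and filters, and each library left out. Within-library ratios were compared by exact permutation tests with SciPy 1.17.1.

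The test was checked on simulated counts with 3-fold changes and an equal spread in both genotypes. There edgeR called 193 of 196 changed genes with the right sign, and 1 other gene. The check does not cover smaller changes or the unequal spread of these libraries. Transcript lengths came from GENCODE M21 and promoters from RefSeq (GRCm38.p6), matched by gene ID. The counting may have used other gene models, so levels per kilobase are approximate. The members and lists were chosen with earlier results of these data known. The rule for named genes took the 10 members, list genes past both thresholds or with the most counts, up to 2 markers a list, and the 3 nearest profiles of *Ccn1* and *Ccn2*. Other genes were named after their values were seen.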

Additional observations from a re-analysis of the deposited data

How the results depend on the processing

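Over 14 alternatives (other scalings, filters and tools, a replicate block, and each library left out), *Ccn1*, *Ccn2*, *Ccn5* and *Amotl2* kept their direction and their side of the adjusted p threshold, with log2 fold changes of -1.36 to -1.13, -0.64 to -0.40, 0.75 to 1.05 and -0.51 to -0.40. *Ankrd1* was also lost with DESeq2 (-0.47, adjusted p = 0.0753). The sign of 2 genes near 0 turned. *Ccn4* had 0.022 with upper quartile scaling, 0.011 with total counts and -0.24 to 0.17 with a library left out (0.17 without *Aff3ir-ORF2*-/- replicate 3). *Wwtr1* had 0.027, 0.018 and -0.051 to 0.020 (0.0070 without WT replicate 3 and 0.020 without *Aff3ir-ORF2*-/- replicate 3), and 0.0015 when every library had to hold 10 counts. The cause was not tested.

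Of the 10 genes, a 2-fold threshold left 0 higher and 1 lower, and the adjusted p alone gave 2 higher and 5 lower. Leaving out a library gave 1 to 3 lower (2 without *Aff3ir-ORF2*-/- replicate 1 and 3 without replicate 3). Of all genes, 1865 higher and 957 lower became 1102 and 318 at 2-fold and 3838 and 3606 on the adjusted p alone. On the adjusted p alone, the lists had 5 higher and 3 lower (other YAP targets), 2 and 5 (Hippo kinases and scaffolds), and 1 and 2 (TEAD and VGLL). The FAT and Dachsous cadherins had 3 higher and 1 lower, and the CCN receptors 9 higher and 1 lower. By the same rule, 29.4% of all tested genes were higher and 27.6% lower. At 2-fold, 1 Hippo kinase or scaffold, 0 TEAD or VGLL genes and 0 receptors were lower. Leaving out a library gave 0 to 1 lower TEAD or VGLL genes and 0 to 1 lower receptors (0 without *Aff3ir-ORF2*-/- replicate 2 in both). It gave 0 to 2 lower cadherins (0 without WT replicate 2 or 3, 2 without *Aff3ir-ORF2*-/- replicate 2). Lower cadherins were 0 with at least 10 counts in every library, with DESeq2 and with limma.

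The WT and *Aff3ir-ORF2*-/- libraries share replicate numbers, but same-numbered libraries did not deviate together (correlations 0.0386, 0.0424 and 0.0145). With a replicate block, 1 gene of the 10 was higher and 1 lower, as without it, and *Yap1* had -0.14 with an adjusted p of 0.0551. With 3 libraries of each genotype, differences as small as that of *Yap1* lie at the limit of what the test can call.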
